A study of Homo sapiens with 12 samples.

Results

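YAP1, WWTR1, TEAD1, TEAD3, TEAD4, VGLL1, VGLL4, ANKRD1, CCN1 and CCN2 are 10 genes of the Hippo pathway's nuclear output, out of 18377 genes measured on the arrays. Each had 1 probe set annotated to it alone, the one with the highest mean level by default, and all 10 were measured. The probe sets were 7943398 (YAP1), 8091422 (WWTR1), 7938544 (TEAD1), 8125887 (TEAD3), 7953150 (TEAD4), 8170179 (VGLL1), 8085340 (VGLL4), 7934979 (ANKRD1), 7902687 (CCN1) and 8129562 (CCN2). The genes were selected on knowledge of the pathway together with earlier results of these same arrays, above all the low VGLL1 and ANKRD1 levels in mutant-only DLD1 cells, so for every member the DLD1 genotype difference and the differences between lines, which use the same DLD1 arrays, are described here with no p-value. HCT116 and DLD1 are human colorectal cancer lines, and in each of them 1 allele of a PI3K catalytic subunit has an activating mutation, a different one per line. The 4 groups, with 3 arrays each, were mutant-only HCT116 cells (wild-type allele knocked out), wild-type-only HCT116 cells (mutant allele knocked out), mutant-only DLD1 cells and wild-type-only DLD1 cells. All groups had been kept for 19 h in McCoy's medium with 0.5% serum, so every group was serum starved and none is the unmodified parental line. Each genotype of a line is 1 targeted derivative as far as the labels say, so differences between derivatives and differences of genotype cannot be told apart. The labels call the arrays biological replicates without naming separate cultures, and the spread may therefore be partly technical.

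YAP1 and WWTR1 (also called TAZ) are coactivators that do not bind DNA themselves. When the Hippo kinases, MST1/2 followed by LATS1/2, are inactive, they enter the nucleus and bind the TEAD transcription factors, which recognise the letters CATTCC. Vestigial-like proteins dock on the same TEAD factors: VGLL4 competes with YAP, and VGLL1 can occupy TEAD in its place. ANKRD1, CCN1 (CYR61) and CCN2 (CTGF) are the genes most often read as a measure of YAP and TEAD activity, and in the gut this output is known from regeneration after injury. YAP and TAZ are controlled largely by phosphorylation and localisation, which transcript levels do not show.

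Median log2 values of the 12 arrays were 7.42 to 7.53, and correlations across probe sets were 0.9952 to 0.9983 within a group and 0.9519 to 0.9633 between lines. Of 9 colon epithelial markers EPCAM, KRT8, KRT18 and KRT19 had group means of 12.02 to 13.50. CDH17, an intestinal cadherin, had 5.59 in both HCT116 groups, against 11.11 in mutant-only and 10.51 in wild-type-only DLD1 cells, and VIL1, the microvillus protein villin, had 6.51 to 6.99 in all groups. The fibroblast, leukocyte and endothelial markers, 12 genes measured, had group means of 4.90 to 8.76, and none passed the test between genotypes in either line. Of the epithelial markers CDH1 and KRT8 rose in mutant-only HCT116 cells and CDH17 in mutant-only DLD1 cells (log2 change 0.60, adjusted p = 0.000144), and their part in the results was not tested. Detection above background was not assessed. In such bulk samples fewer cells with a transcript and less of it per cell cannot be told apart. Levels below are log2 values, given with the SD of 3 arrays, and differences carry the standard error (SE) of a limma fit over all genes. A gene was called at a Benjamini-Hochberg adjusted p under 0.05. With 3 arrays a group, precision is limited by that number.

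Most of the 10 genes differed more between the lines than between genotypes. Over all genes, too, more were called between lines, 50.6% among mutant-only and 48.8% among wild-type-only cells. Between genotypes 4.02% rose and 2.14% fell in HCT116, and 5.66% rose and 3.11% fell in DLD1. In DLD1 the mutant-only arrays lay below the wild-type-only arrays without overlap for 8 of the 10 and above them for 0. Of all genes 12.7% and 15.6% did so. TEAD4 and VGLL4 overlapped. The gap was very small for YAP1, with 11.6494 against 11.6518 on the closest arrays, and for CCN2, with 9.7004 against 9.7173. The median log2 difference was -0.25, against -0.01 over all genes. The choice of the genes used these DLD1 arrays, so those counts are a description. In HCT116 CCN1 alone passed the test in the main fit, upwards, where 4.02% of all genes rose and 2.14% fell. With the replicate number as a block in limma CCN2 passed too, downwards (adjusted p = 0.0127). With the HCT116 arrays alone 0 members passed. At an unadjusted p under 0.05 the HCT116 counts of the main fit were 1 higher (CCN1) and 1 lower (TEAD1). The share of all genes at that threshold was not counted, so these counts have no background beside them. The median log2 change in HCT116 was 0.07, against -0.001 over all genes.

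**Figure D1:**
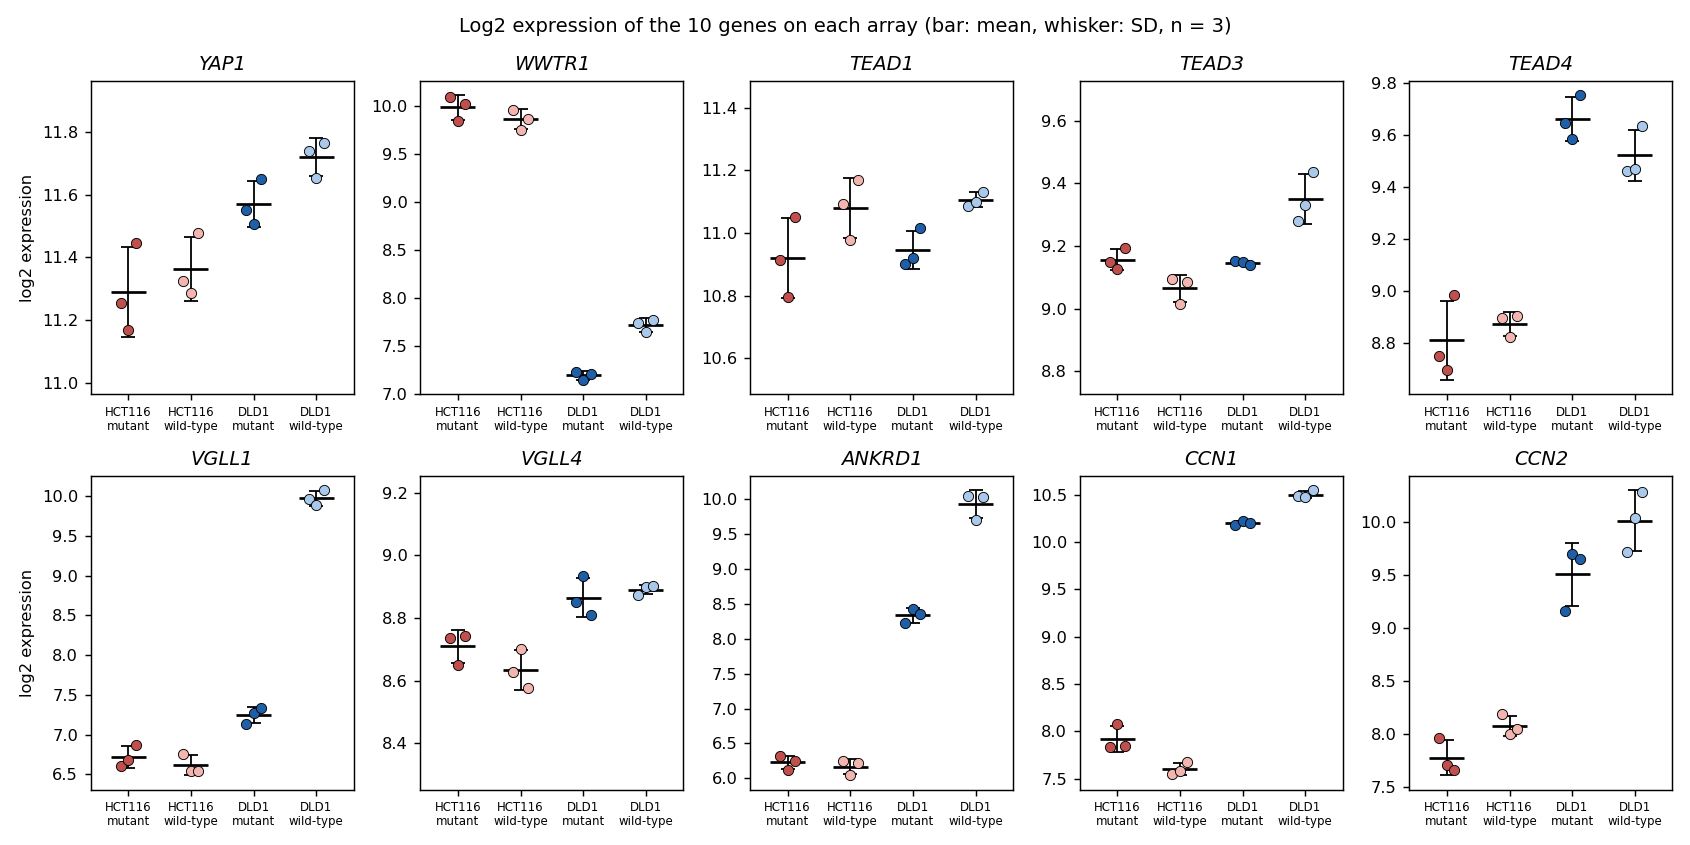
Log2 expression (y axis, 1 scale per gene) of the 10 genes on each of the 12 arrays, grouped by line and genotype on the x axis, with the mean as a bar and the SD of 3 arrays as a whisker. VGLL1 and ANKRD1 stand near 10 only in wild-type-only DLD1 cells, while WWTR1 is near 10 in both HCT116 groups and under 8 in both DLD1 groups.

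Among the coactivators, YAP1 and WWTR1 differed between the lines in opposite directions. YAP1 had log2 levels of 11.25, 11.17 and 11.45 in mutant-only HCT116 cells, against 11.32, 11.28 and 11.48 in wild-type-only HCT116 cells. In DLD1 it had 11.55, 11.51 and 11.65 in mutant-only cells, against 11.74, 11.65 and 11.77 in wild-type-only cells. The HCT116 genotypes overlapped and both DLD1 groups lay above both HCT116 groups. The DLD1 genotypes were set apart only by 11.6494 on mutant-only array 3 against 11.6518 on wild-type-only array 2. The HCT116 genotype difference was -0.07 (SE 0.0757, adjusted p = 0.694) and the DLD1 difference was -0.15 (SE 0.0757). Between lines YAP1 was 1.21-fold lower in HCT116 among mutant-only cells (log2 difference -0.28, SE 0.0757) and 1.28-fold lower among wild-type-only cells (-0.36).

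WWTR1 had log2 levels of 10.10, 9.85 and 10.02 in mutant-only HCT116 cells, against 9.97, 9.76 and 9.87 in wild-type-only HCT116 cells. In DLD1 it had 7.23, 7.14 and 7.20 in mutant-only cells, against 7.74, 7.64 and 7.77 in wild-type-only cells. The HCT116 genotypes overlapped, and in DLD1 all mutant-only arrays were lower. The HCT116 difference was 0.13 (SE 0.0715, adjusted p = 0.39), and in DLD1 the mutant-only cells were 1.44-fold lower (log2 difference -0.53, SE 0.0715). HCT116 exceeded DLD1 6.97-fold among mutant-only cells (log2 difference 2.80, SE 0.0715) and 4.43-fold among wild-type-only cells (2.15). It was the 1 member whose HCT116 arrays lay above the DLD1 arrays in both genotypes.

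TEAD1, TEAD3 and TEAD4 differed little between genotypes. TEAD2, which is not a member, rose in both lines, as given below. TEAD1 had group means of 10.92 ± 0.13 in mutant-only and 11.08 ± 0.10 in wild-type-only HCT116 cells, and of 10.95 ± 0.06 in mutant-only and 11.11 ± 0.02 in wild-type-only DLD1 cells (SD, n = 3 each). The difference was -0.16 in either line (SE 0.0687), which did not pass in HCT116 (adjusted p = 0.226), and the lines differed by -0.03 in either genotype. TEAD1 was the 1 member whose arrays overlapped between lines in both genotypes, and neighbouring groups in its order of levels all overlapped. The DLD1 genotypes, which are not neighbours in that order, did not overlap, with every mutant-only array lower.

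TEAD3 had 9.15, 9.13 and 9.19 in mutant-only HCT116 cells, against 9.09, 9.02 and 9.08 in wild-type-only HCT116 cells. In DLD1 it had 9.15, 9.15 and 9.14 in mutant-only cells, against 9.28, 9.33 and 9.44 in wild-type-only cells. The mutant-only arrays were thus above the wild-type-only arrays in HCT116 and below them in DLD1, without overlap. The differences were small, 0.09 in HCT116 (SE 0.0514, adjusted p = 0.384) and -0.20 in DLD1. Between lines the log2 difference was 0.01 among mutant-only cells, where the arrays overlapped, and -0.28 among wild-type-only cells, where they did not (SE 0.0514 each).

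TEAD4 had group means of 8.81 ± 0.15 in mutant-only and 8.87 ± 0.05 in wild-type-only HCT116 cells, and of 9.66 ± 0.08 in mutant-only and 9.52 ± 0.10 in wild-type-only DLD1 cells (SD, n = 3 each). The genotypes overlapped in both lines, with a difference of -0.06 in HCT116 (adjusted p = 0.747) and 0.14 in DLD1, the 1 member with a higher mean in mutant-only DLD1 cells. It was 1.80-fold lower in HCT116 than in DLD1 among mutant-only cells and 1.57-fold lower among wild-type-only cells, without overlap. For YAP1, TEAD1 and TEAD4 the array numbered 3 was the highest of its group in 4 of 4 groups.

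The promoter sequences of the 3 members lowest in HCT116 relative to wild-type-only DLD1 cells that the RefSeq promoter table used here matched, VGLL1, ANKRD1 and CCN2, are shown because all 3 hold the letters TEAD factors recognise. Each runs from 250 bases before to 50 bases after the annotated start, on the gene's strand, in GRCh38.p14: VGLL1 at chrX:136531965-136532264 (plus strand), ANKRD1 at chr10:90921038-90921337 (minus strand) and CCN2 at chr6:131951323-131951622 (minus strand). Capitals mark CATTCC or its reverse complement GGAATG. In ANKRD1 they also mark TGANTCA, an AP-1 pattern searched with any base in the centre, here T, which does not overlap them.
VGLL1: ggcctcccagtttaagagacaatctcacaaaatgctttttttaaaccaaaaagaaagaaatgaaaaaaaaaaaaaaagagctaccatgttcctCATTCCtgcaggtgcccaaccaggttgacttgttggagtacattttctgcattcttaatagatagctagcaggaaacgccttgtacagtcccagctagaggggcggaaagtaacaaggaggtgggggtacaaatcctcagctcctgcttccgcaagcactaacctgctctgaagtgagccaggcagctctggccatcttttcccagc
ANKRD1: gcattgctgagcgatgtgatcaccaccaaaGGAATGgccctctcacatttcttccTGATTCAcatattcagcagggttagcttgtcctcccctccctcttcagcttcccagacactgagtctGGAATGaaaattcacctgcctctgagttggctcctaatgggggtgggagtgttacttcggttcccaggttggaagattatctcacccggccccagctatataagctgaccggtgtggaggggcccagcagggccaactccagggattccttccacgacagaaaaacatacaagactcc
CCN2: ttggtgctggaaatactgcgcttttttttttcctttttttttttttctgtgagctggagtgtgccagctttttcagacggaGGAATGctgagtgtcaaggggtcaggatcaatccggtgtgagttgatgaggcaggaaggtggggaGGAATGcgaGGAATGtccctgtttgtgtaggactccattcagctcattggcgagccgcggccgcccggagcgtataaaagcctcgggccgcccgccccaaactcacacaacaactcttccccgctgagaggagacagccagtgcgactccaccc

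CCN2 held the TEAD letters 3 times, beginning 169, 104 and 95 bases before the start, ANKRD1 held them 2 times, at 220 and 128 bases, and VGLL1 held them 1 time, at 157 bases. ANKRD1 held the AP-1 letters in this loose form 1 time, as TGATTCA, 195 bases before the start. Of all 35116 promoter windows, 4928 (14%) held CATTCC on either strand and 7.71% held TGANTCA. The table matched 7 of the 10 genes with 12 windows, of which 4 held the TEAD letters, the remaining one being that of YAP1 (162 bases before the start), and 1 held the AP-1 letters. CCN1, TEAD1 and TEAD4 were not matched. A match is a description of letters and not of a bound site.

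VGLL1 was high in wild-type-only DLD1 cells alone. It had log2 levels of 7.14, 7.28 and 7.34 in mutant-only DLD1 cells, against 9.97, 9.89 and 10.07 in wild-type-only DLD1 cells. In HCT116 it had 6.61, 6.68 and 6.87 in mutant-only cells, against 6.76, 6.54 and 6.54 in wild-type-only cells. The DLD1 genotypes lay far apart and the HCT116 genotypes overlapped. Mutant-only DLD1 cells were 6.60-fold lower (log2 difference -2.72, SE 0.0844), and still above both HCT116 groups. The HCT116 difference was 0.10 (SE 0.0844, adjusted p = 0.595). HCT116 was 1.45-fold lower than DLD1 among mutant-only cells and 10.3-fold lower among wild-type-only cells. The DLD1 genotype difference minus the HCT116 one was -2.83 (SE 0.119).

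VGLL4 had group means of 8.71 ± 0.05 in mutant-only and 8.63 ± 0.06 in wild-type-only HCT116 cells, and of 8.86 ± 0.06 in mutant-only and 8.89 ± 0.02 in wild-type-only DLD1 cells (SD, n = 3 each). Its genotypes overlapped in both lines (HCT116 difference 0.07, SE 0.0529, adjusted p = 0.521; DLD1 difference -0.03, SE 0.0529), where VGLL1 had -2.72 in DLD1. VGLL4 was lower in HCT116 than in DLD1, with a log2 difference of -0.16 among mutant-only cells and -0.26 among wild-type-only cells (SE 0.0529 each).

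ANKRD1, a muscle and stress-induced ankyrin repeat protein, had log2 levels of 8.22, 8.43 and 8.35 in mutant-only DLD1 cells, against 10.05, 9.70 and 10.03 in wild-type-only DLD1 cells. In HCT116 it had 6.32, 6.13 and 6.25 in mutant-only cells, against 6.25, 6.04 and 6.22 in wild-type-only cells. Its order was that of VGLL1, with overlapping HCT116 genotypes lowest, mutant-only DLD1 cells next and wild-type-only DLD1 cells highest. The step between the lines was the larger one for ANKRD1: mutant-only DLD1 cells were 3.02-fold lower than wild-type-only DLD1 cells (log2 difference -1.59, SE 0.0946), and HCT116 was 4.30-fold lower than DLD1 among mutant-only cells and 13.5-fold lower among wild-type-only cells. The HCT116 genotype difference was 0.06 (SE 0.0946, adjusted p = 0.811), and the DLD1 genotype difference minus it was -1.65 (SE 0.134). In the authors' deposited table whose group values equal the DLD1 means to within 3.3e-07, VGLL1 is listed as 6.60-fold down and ANKRD1 as 3.02-fold down. No other member is listed in either of the authors' deposited tables, which hold changes of at least 2-fold.

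CCN1 encodes a secreted matricellular protein that signals through integrins. It had log2 levels of 7.83, 8.07 and 7.84 in mutant-only HCT116 cells, against 7.55, 7.58 and 7.68 in wild-type-only HCT116 cells. In DLD1 it had 10.18, 10.22 and 10.20 in mutant-only cells, against 10.49, 10.47 and 10.54 in wild-type-only cells. The genotypes did not overlap in either line, and the mutant-only cells were the higher ones in HCT116 and the lower ones in DLD1. In HCT116 CCN1 rose 1.25-fold (log2 change 0.32, SE 0.0649, adjusted p = 0.0106), a call that ended in a fit of only the HCT116 arrays (adjusted p = 0.0637). In DLD1 the mutant-only cells were 1.23-fold lower (log2 difference -0.30, SE 0.0649). HCT116 was 4.85-fold lower than DLD1 among mutant-only cells and 7.46-fold lower among wild-type-only cells, without overlap.

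CCN2, its relative, encodes connective tissue growth factor. It had log2 levels of 7.96, 7.70 and 7.66 in mutant-only HCT116 cells, against 8.19, 8.005 and 8.05 in wild-type-only HCT116 cells. In DLD1 it had 9.16, 9.70 and 9.65 in mutant-only cells, against 9.72, 10.04 and 10.28 in wild-type-only cells. The mutant-only arrays lay below in both lines, in DLD1 by a gap far smaller than the spread within a group. The difference was -0.30 in HCT116 (SE 0.15, adjusted p = 0.307) and -0.51 in DLD1 (SE 0.15). The DLD1 difference was -0.34 when array 1 of the mutant-only cells was left out, and -0.66 when array 1 of the wild-type-only cells was. When the fit included the replicate number as a block, since arrays of a line with one number deviated together, the HCT116 change of CCN2 passed (adjusted p = 0.0127). HCT116 was 3.32-fold lower than DLD1 among mutant-only cells and 3.83-fold lower among wild-type-only cells, without overlap. Mutant-only means of CCN1 and CCN2 were thus both lower in DLD1, while in HCT116 that of CCN1 was higher and that of CCN2 lower.

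**Figure D2:**
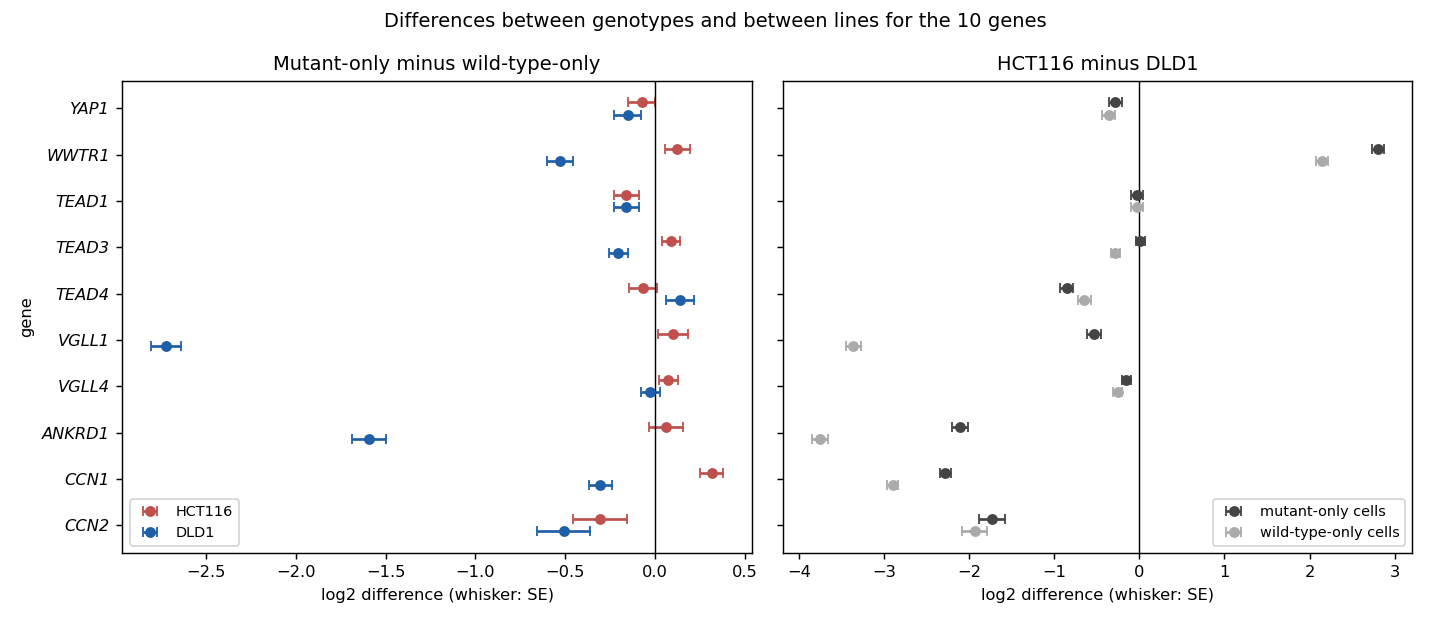
Log2 differences with their standard errors (x axis) for the 10 genes (y axis), on the left between mutant-only and wild-type-only cells in each line and on the right between HCT116 and DLD1 within each genotype. VGLL1 at -2.72 and ANKRD1 at -1.59 stand apart on the left in DLD1, and WWTR1 lies at 2.15 or above on the right while ANKRD1, CCN1 and CCN2 lie at -1.73 or below.

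Between lines, the mutant-only HCT116 arrays lay below the mutant-only DLD1 arrays without overlap for 7 of the 10 members and above them for 1, where 28.9% of all genes were lower and 28.9% higher in this way. Among wild-type-only cells 8 of the 10 were lower and 1 higher, where 28.1% of all genes were lower and 26.6% higher. The median log2 difference of the members was -0.41 among mutant-only and -0.50 among wild-type-only cells, against 0.01 and 0.004 over all genes. Since the DLD1 arrays entered the choice of the members, these counts are a description. These comparisons use the same arrays as the genotype comparisons and are given beside them as values.

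The nearest measured genes around VGLL1 and ANKRD1 had DLD1 changes near 0, but several of them were dim. BRS3, for example, had 5.46 in mutant-only and 5.45 in wild-type-only DLD1 cells, and ARHGEF6 had 5.56 and 5.51. A fall in such genes could hardly show. Up to 23 unmeasured genes lay between VGLL1 and a named gene, and up to 18 for ANKRD1. Around VGLL1 on the X chromosome, the 5 nearest measured genes on each side (MMGT1, MAP7D3, ADGRG4, BRS3 and HTATSF1, and ARHGEF6, SNORD61, GPR101, FGF13 and MIR504) had DLD1 log2 changes of -0.14 to 0.14. Around ANKRD1 on chromosome 10, MIR107, FLJ37201, KIF20B, HTR7 and RPP30, and NUDT9P1, PCGF5, HECTD2, PPP1R3C and TNKS2, had changes of -0.13 to 0.05. In limma 0 of these 20 genes passed in DLD1, where 5.66% of all genes rose and 3.11% fell. Of the 20, 1, HECTD2, had an unadjusted p under 0.05, and the share of all genes at that threshold was not counted.

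**Figure D3:**
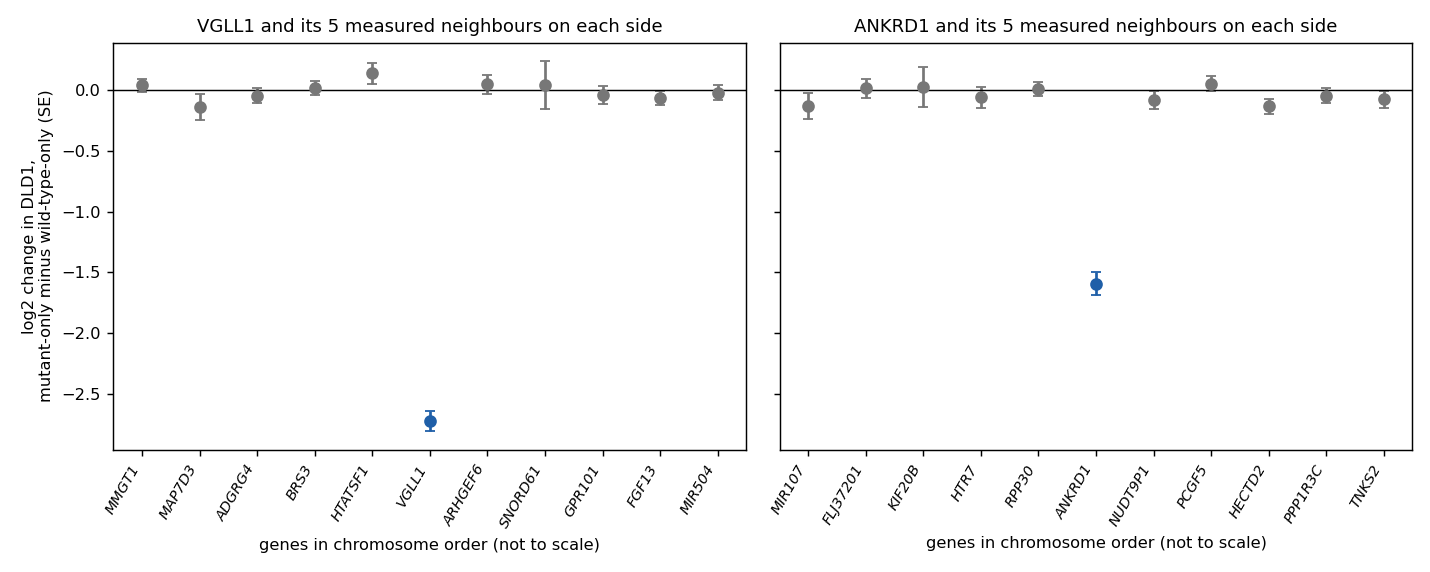
Log2 change in DLD1, mutant-only minus wild-type-only, with its standard error (y axis) for VGLL1, for ANKRD1 and for the 5 nearest measured genes on each side in chromosome order (x axis, not to scale). All 20 neighbours lie between -0.14 and 0.14, while VGLL1 is at -2.72 and ANKRD1 at -1.59.

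Over the 12 arrays, the 5 genes whose levels correlated most with VGLL1 were CGAS, the cytosolic DNA sensor (Pearson r = 0.996), KRTAP3-1 (0.99), SIGLEC6 (0.9877), the membrane serine protease TMPRSS4 (0.9853) and the homeobox gene HOXD10 (0.9829). CGAS was dim in all groups, with 5.48 in mutant-only and 6.61 in wild-type-only DLD1 cells. In HCT116 it had 5.34 in mutant-only and 5.28 in wild-type-only cells. TMPRSS4 averaged 7.66 in mutant-only and 9.02 in wild-type-only DLD1 cells, and 7.37 in mutant-only and 7.19 in wild-type-only HCT116 cells. For ANKRD1 they were the phosphodiesterase PDE10A (0.9926), VILL (0.9902), DPYSL2 (0.99), SERTAD4 (0.9897) and CLIC5 (0.9892). SERTAD4 averaged 8.10 in mutant-only and 8.94 in wild-type-only DLD1 cells, and 6.11 in mutant-only and 6.15 in wild-type-only HCT116 cells. The 12 points form 4 groups and share line and genotype, so these coefficients describe the group means. No gene was among the 5 for both.

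The rest of the Hippo pathway, 32 genes from kinases to junctional scaffolds and the remaining TEAD and Vestigial-like genes, had 5 calls between genotypes in HCT116 and 4 in DLD1. This list was written with earlier results of these arrays known, so its calls are a description. In HCT116 4 of the 32 rose and 1 fell, where 4.02% of all genes rose and 2.14% fell. TEAD2, a further TEAD factor, rose by 0.35 to 9.42 ± 0.08 in mutant-only cells, against 9.07 ± 0.08 in wild-type-only cells (SD, n = 3 each, adjusted p = 0.00573). The tyrosine phosphatase PTPN14, which binds YAP, rose by 0.41 (adjusted p = 0.00201), the kinase MAP4K4 by 0.33 (adjusted p = 0.00401) and the LIM protein AJUBA, an inhibitor of LATS, by 0.37 (adjusted p = 0.0432). SAV1, the scaffold of the MST kinases, fell by 0.44 (SE 0.0541, adjusted p = 0.000228), and its groups had 10.69 ± 0.05 and 11.13 ± 0.01 (mutant-only and wild-type-only, SD, n = 3). The AJUBA call ended when array 2 or 3 of the mutant-only or array 1 or 2 of the wild-type-only HCT116 cells was left out (adjusted p 0.0931 to 0.174), after median centring (0.0568) and with the HCT116 arrays alone (0.0526).

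In DLD1 2 of the 32 rose and 2 fell, where 5.66% of all genes rose and 3.11% fell. TEAD2 rose here too, by 0.52 (SE 0.065, adjusted p = 0.000217), to 8.17 ± 0.05 in mutant-only cells, against 7.66 ± 0.10 in wild-type-only cells (SD, n = 3 each). WWC2, a relative of the LATS activator KIBRA, rose by 0.42 (adjusted p = 0.00845). AMOTL2, an angiomotin-like binder of YAP, fell by 0.31 (adjusted p = 0.0235) and PTPN14 fell by 0.24 (adjusted p = 0.0402). The count of 4 was 2, both rises, when array 1 or 2 of the mutant-only or array 3 of the wild-type-only cells was left out, and 3 without any other single DLD1 array. The list's median log2 change was -0.03 in DLD1 and 0.05 in HCT116, against -0.01 and -0.001 over all genes.

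Between lines, 8 of the 32 genes were higher and 14 lower in HCT116 among mutant-only cells, where 50.6% of all genes passed in either direction and 26.3% were lower. Among wild-type-only cells 8 were higher and 17 lower, where 48.8% of all genes passed and 25.5% were lower. Chosen after their values were seen, VGLL3, a further Vestigial-like cofactor, was lower in HCT116, with a log2 difference of -2.45 among mutant-only cells and -2.53 among wild-type-only cells (SE 0.132 each). TEAD2 was higher in HCT116 by 1.24 among mutant-only cells and by 1.41 among wild-type-only cells. Of the Vestigial-like genes VGLL1, VGLL3 and VGLL4 thus had lower means in HCT116 in both genotypes, and for VGLL2 the difference was 0.06 among mutant-only cells (adjusted p = 0.427) and 0.13 among wild-type-only cells (adjusted p = 0.0859).

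Of 19 further genes commonly listed as YAP and TEAD targets, 3 of which (LATS2, AMOTL2 and PTPN14) also belong to the pathway list, 4 rose and 1 fell in HCT116, where 4.02% of all genes rose and 2.14% fell. These lists were written with earlier results of these arrays known, so their calls are a description. F3, tissue factor, rose by 0.44 to 8.31 ± 0.06 in mutant-only cells, against 7.87 ± 0.04 in wild-type-only cells (SD, n = 3 each, adjusted p = 0.000573). PTPN14 rose as above, the growth arrest gene GADD45A rose by 0.37 (adjusted p = 0.0125) and the Arf regulator ASAP1 by 0.37 (adjusted p = 0.0115). NT5E, the ectonucleotidase CD73, fell by 1.14 (SE 0.0901, adjusted p = 4.21e-06), to 8.82 ± 0.17 in mutant-only cells, against 9.96 ± 0.12 in wild-type-only cells (SD, n = 3 each). The ASAP1 call ended when array 1 of the wild-type-only cells was left out (adjusted p = 0.0564) and in a fit of the HCT116 arrays only (0.0511). The list's median log2 change was 0.11 in HCT116.

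In DLD1 6 of the 19 fell and 2 rose, where 3.11% of all genes fell and 5.66% rose. FJX1, a secreted regulator of Fat and Dachsous cadherins, fell by 0.35 (SE 0.0565, adjusted p = 0.00161), AMOTL2 and PTPN14 as above, the transmembrane protein CRIM1 by 0.28 (adjusted p = 0.0228) and the Rac exchange factor DOCK5 by 0.22 (adjusted p = 0.0497). The sixth was MYOF, myoferlin, which fell by 0.21 (adjusted p = 0.00752) and is named after its value was seen. RBMS3, an RNA-binding protein, rose by 0.76 to 7.00 ± 0.07 in mutant-only cells, against 6.25 ± 0.05 in wild-type-only cells (SD, n = 3 each, adjusted p = 2.23e-06), and the cytokine TGFB2 rose by 0.50 (adjusted p = 0.00195). The 8 calls became 4 when array 1 or 2 of the mutant-only cells was left out, and 5 when array 3 of the mutant-only or array 1 or 3 of the wild-type-only cells was. CRIM1 lost its call without any DLD1 array except wild-type-only array 2, DOCK5 except wild-type-only array 3, PTPN14 except mutant-only array 3 and AMOTL2 except wild-type-only arrays 1 and 2 (adjusted p 0.0516 to 0.158). The DOCK5 call also ended in a fit of the DLD1 arrays only (0.0654). The list's median log2 change was -0.06.

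**Figure D4:**
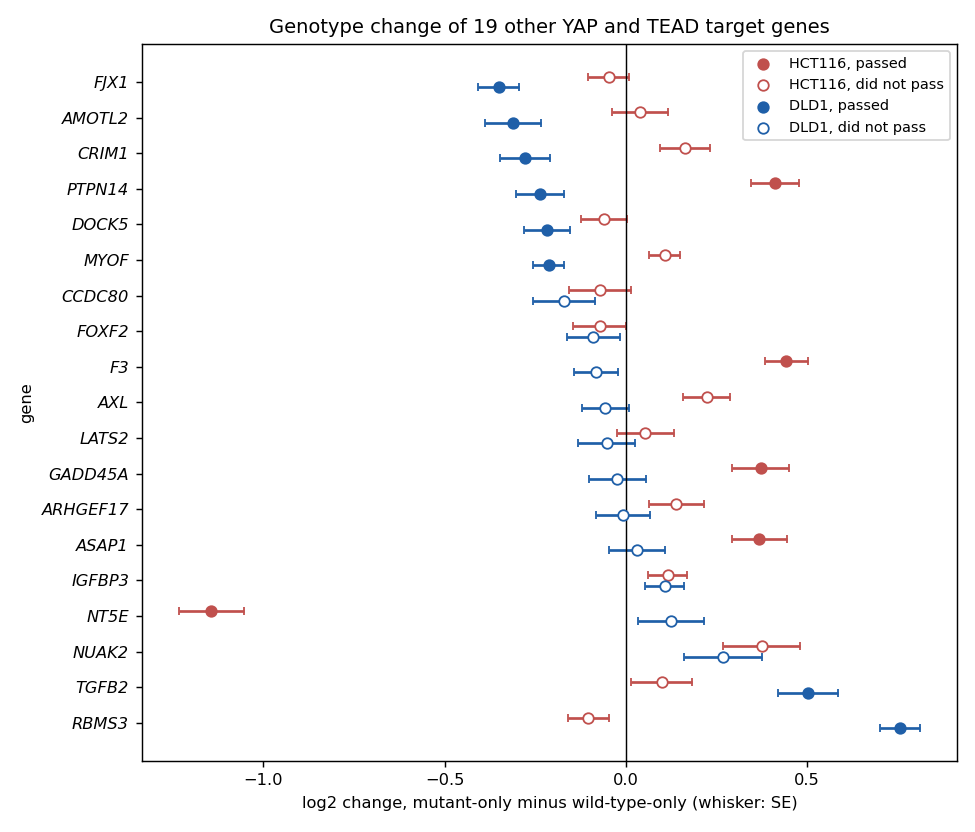
Log2 change with its standard error (x axis) of the 19 further YAP and TEAD target genes (y axis, ordered by the DLD1 change) in HCT116 and in DLD1, with filled points for genes that passed the test. Of the filled DLD1 points 6 lie below 0 and 2 above, and of the filled HCT116 points 4 lie above 0 and 1, NT5E at -1.14, below.

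The difference between the genotype changes of the lines was tested for the 48 distinct genes of both lists. It passed for 11, with 7 lower and 4 higher in DLD1 than in HCT116, where 7.11% of all genes passed. Both lists were written with earlier results of these arrays known, so these calls are a description. PTPN14 was called in both lines with opposite sign (difference -0.65, SE 0.0931, adjusted p = 0.000804). The difference was -0.53 for F3 (adjusted p = 0.0019), 0.52 for SAV1 (adjusted p = 0.00103) and 1.27 for NT5E (adjusted p = 4e-05).

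Between lines, 13 of the 19 targets were lower in HCT116 and 2 higher among wild-type-only cells, and 14 lower and 3 higher among mutant-only cells, where 25.5% and 26.3% of all genes were lower. The list's median log2 difference was -0.74 among mutant-only and -0.71 among wild-type-only cells, against 0.01 and 0.004 over all genes. Chosen after their values were seen, TGFB2 was lower in HCT116, with a log2 difference of -4.37 among mutant-only and -3.97 among wild-type-only cells. The difference was -1.40 among mutant-only and -1.84 among wild-type-only cells for CRIM1. For AMOTL2 it was -1.48 among mutant-only and -1.83 among wild-type-only cells. The receptor tyrosine kinase AXL was higher in HCT116, by 2.10 among mutant-only cells and by 1.82 among wild-type-only cells. Lower ANKRD1, CCN1 and CCN2 levels in HCT116 thus stood beside lower levels of most other listed targets and beside higher WWTR1 levels.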

How the data were processed

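Per the labels' protocols, 500 ng of total RNA from each of 12 samples went onto an Affymetrix human gene array. The deposited values are log2 expression of 28869 probe sets, and how the authors normalized them is not given in the sources used here. The authors also deposited tables of selected probe sets that list log2 group values, a fold ratio and a p-value for each. Per the file headers these came from a moderated test without correction for multiple testing, with a fold minimum of 2, and the annotation was on hg19. Symbols came from the platform annotation, updated by gene identifier (19279 of 19310 single-symbol probe sets matched, RefSeq, GRCh38.p14). Those with several symbols (1752) or no symbol (7807) were not used, and the highest-mean probe set per gene was kept, which left 18377 genes. Gene order came from RefSeq on GRCh38.p14, whose build differs from that of the arrays.

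The members and lists were chosen with earlier results of these data known. Group means were fitted with limma 3.58.1 in R 4.3.3 (lmFit, eBayes) over all 12 arrays, with 8 residual and 5.17 prior degrees of freedom, two-sided p-values and Benjamini-Hochberg adjustment over all genes. The planned tests of members between lines use the DLD1 arrays that entered their choice and are given without p-values. The fit was tested on simulated data. Named were the members, up to 5 called genes in each direction per list and line, the 5 genes most correlated with VGLL1 and with ANKRD1, and their 5 nearest measured neighbours on each side. Within a line, arrays with one number had deviations from their group means that correlated at 0.129 to 0.462 in 6 of 6 pairs. Across lines these correlations were 0.0657 to 0.471 for arrays with one number, and -0.413 to 0.191 for arrays with different numbers. The replicate number within a line was therefore run as a block for all genes, as an alternative. The main fit had no block, and block results are given mainly where a call changed. In the comparisons between lines the replicate block was the number shared by both lines, while the main fit paired no arrays. Alternatives were the mean of all probe sets of a gene, leaving out genes under the 40th percentile of mean level, quantile normalization, median centring, the compared groups alone, the replicate block and leaving out each array. The targeted gene's transcript and the names of its mutations are not reported here.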

Additional observations from a re-analysis of the deposited data

Results flagged for a closer look

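TEAD3 and CCN1 were each higher on every mutant-only array in HCT116 and lower on every mutant-only array in DLD1. Of all 18377 genes, 2299 were higher in this way in HCT116 and 2335 lower in DLD1. The number of genes that did both was not counted, so the joint pattern has no background beside it. The HCT116 change of TEAD3 was 0.09 and did not pass in limma (adjusted p = 0.384). The DLD1 genotype difference minus the HCT116 one was -0.29 for TEAD3 and -0.62 for CCN1 on the log2 scale. These differences between the lines were not tested, because the DLD1 arrays entered the choice of the genes.

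For 11 listed pathway and target genes the change between genotypes differed between the lines by an interaction contrast in limma. The lists were written with earlier results of these arrays known, so these calls are a description. The DLD1 change minus the HCT116 change was below 0 for PTPN14 (-0.65), F3 (-0.53), CRIM1 (-0.44), MAP4K4 (-0.42), GADD45A (-0.40), MYOF (-0.32) and FJX1 (-0.30). It was above 0 for NT5E (1.27), RBMS3 (0.86), SAV1 (0.52) and WWC2 (0.44). The smallest margin was that of GADD45A (adjusted p = 0.0492), whose call was lost without 10 of the 12 arrays in turn, and those of WWC2 and FJX1 were lost without 8 and 7 of them. Median centring also ended the calls of GADD45A (adjusted p = 0.0732) and WWC2 (0.0519), and quantile normalization that of WWC2 (0.0718).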

How the results depend on the processing

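The VGLL1 difference in DLD1 was -2.77 to -2.67 and the ANKRD1 difference -1.71 to -1.53 when any 1 DLD1 array was left out, and both moved by less than the replicate SD under every other alternative. Of the 10 members 1 was called in HCT116, and also 1 without any single array, but 2 (CCN1 and CCN2) with the replicate block and 0 with the HCT116 arrays alone. Leaving out 1 array gave 2 to 3 calls in DLD1 and 4 to 6 in HCT116 for the pathway list, and 4 to 6 in DLD1 and 4 to 5 in HCT116 for the target list. The replicate block left the target counts at 8 in DLD1 and 5 in HCT116, and the pathway counts were 4 in DLD1 and 6 in HCT116, and among named genes it changed no call but that of CCN2. For single genes 57 calls were lost under an alternative, 49 of them when 1 array was left out, and 1 was gained. Fewer arrays leave fewer degrees of freedom, and the cause of the other losses was not tested. After quantile normalization the DLD1 differences of TEAD1 (-0.22), VGLL4 (-0.07) and CCN1 (-0.35) moved by more than the replicate SD. No direction of a called gene turned under any alternative run. Detection above background was not assessed, which limits statements on dim genes such as ANKRD1 and VGLL1 in HCT116.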
